A study of Gallus gallus with 2 samples.

Results

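Chromosome 1, the longest chicken chromosome, carried 492 of the 3317 FOXO1 peaks called in differentiating chicken myoblasts, which is 14.8% of the list. Its share of length was larger by value, at 19.6% of the summed highest peak ends of all listed chromosomes, and this difference was not tested. These 492 peaks were taken by their chromosome name alone, so no measured value chose them. They come from 1 FOXO1 ChIP library (antibody sc-374427X, Santa Cruz) and 1 input DNA library made without antibody. Both were prepared from primary myoblasts of thigh muscle from embryos at 11 days, grown in 20% fetal bovine serum and then switched to 2% horse serum to differentiate. The cells of both libraries therefore share tissue, age and medium, and the labels separate the libraries by the antibody step alone. The libraries also differed in depth: 1 input tag counted as 0.053 of a tag at the ChIP depth, so the input was the deeper one. Since neither the ChIP nor the input was replicated, each statement describes this peak list or compares these 2 libraries, and the myoblast label could not be checked against expressed markers because only chromatin was measured.

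FOXO1 is a transcription factor of the forkhead family, whose winged-helix domain reads a short DNA motif in promoters and enhancers. In the absence of insulin or growth factor signalling it stays in the nucleus, and phosphorylation by the kinase Akt moves it to the cytoplasm. In mammalian muscle it is known for inducing ubiquitin ligase genes during atrophy and for acting on the timing of myoblast fusion. A ChIP peak marks a place where DNA was recovered with the antibody more often than in the input, and it does not by itself name the gene that is controlled. The genome build behind the coordinates is not given in the sources used here, so no gene, motif or sequence was assigned, and positions are printed as listed.

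The chromosome 1 peaks were mostly small, and one short stretch stood apart from the rest. Outside that stretch the 478 peaks held a median of 7 ChIP tags (aligned reads, range 6 to 304) and a median of 11 input tags (range 1 to 674). The median fold over input, which is the ratio of ChIP tags to input tags after the authors scaled input to the ChIP depth, was 13.21 outside the stretch (order-statistic 95% interval 12.58 to 14.16). Inside the stretch, 14 peaks within 63.3 kb held a median of 144 ChIP tags (range 15 to 714) and 261 input tags (range 54 to 1019), with a median fold of 12.8. These 14 made up 2.85% of the peaks of chromosome 1 and held 47.5% of its 7989 ChIP tags at peaks and 44.3% of its 11724 input tags at peaks. Peak finding considered at most 1 tag per position, per the file header, and the stretch took 37.8% of the peak scores that came from it. The stretch is therefore described apart, and values for the whole of chromosome 1 include it unless it is said to be left out.

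**Figure D1:**
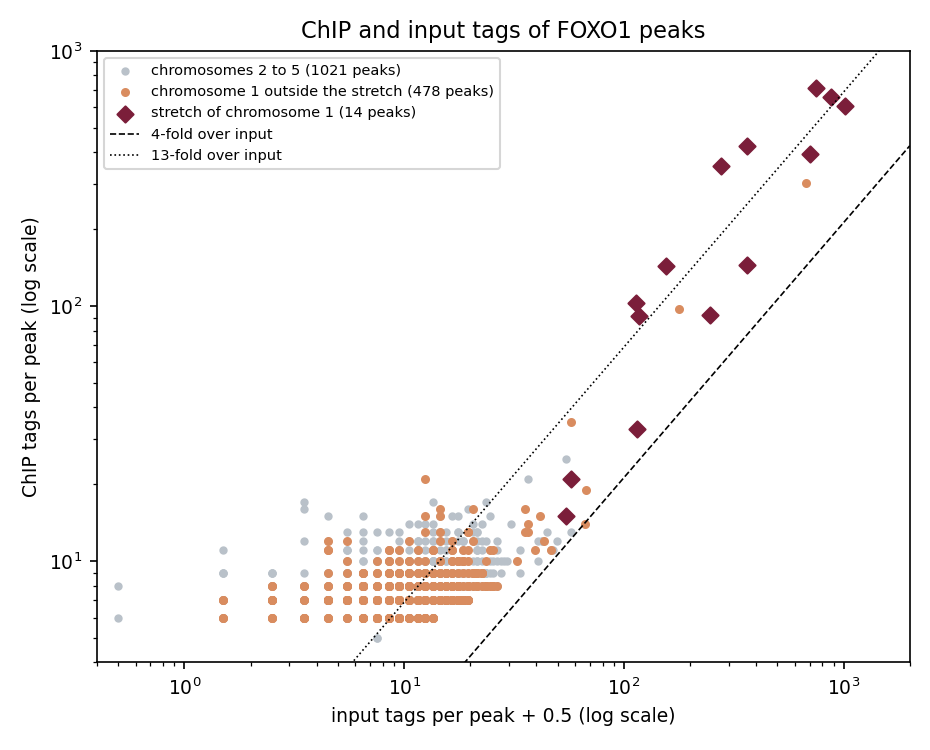
ChIP tags (vertical, log scale) against input tags plus 0.5 (horizontal, log scale) for each peak of chromosomes 1 to 5. Lines mark 4 and 13 times the scaled horizontal value. That value includes the added 0.5, so a peak at exactly 4-fold over input lies slightly below the 4-fold line. The 14 peaks of the stretch run from 15 to 714 ChIP tags with 54 to 1019 input tags, while 86.4% of the other chromosome 1 peaks and 84.9% of those on chromosomes 2 to 5 sit at 6 to 9 ChIP tags.

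Counting error was large for the single peaks. In a one-sided exact binomial comparison with input, every one of the 492 passed (largest Benjamini-Hochberg adjusted p = 0.000249 over all 3317 peaks), but the list had already been selected on the same excess. A stricter reading asks whether the lower end of the exact (Clopper-Pearson) 95% interval of the fold exceeded 4, the minimum required by the peak caller. That held for 60.3% of all listed peaks and for 301 of the 492 on chromosome 1, or 61.2% (exact 95% interval 56.7 to 65.5), and for 60.5% of the 478 outside the stretch. A lower limit above 8 was reached by 13.3% of all listed peaks and by 68 on chromosome 1, or 13.8% (10.9 to 17.2), and by 12.3% outside the stretch. Both shares on chromosome 1 were close to those of the whole list. Such intervals cover counting error only, with each tag taken as a separate molecule. PCR copies of a fragment are not separate molecules, so the intervals can be too narrow where copies are many.

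Among the long autosomes, chromosome 1 had a lower peak density than chromosome 5, and its difference from chromosomes 2, 3 and 4 did not pass the test. Over 195 Mb, up to the highest peak end at 194973298, it carried 2.52 peaks per Mb. Chromosome 2 had 326 peaks at 2.19 per Mb, chromosome 3 had 257 at 2.33, chromosome 4 had 230 at 2.55 and chromosome 5 had 208 at 3.50. In a quasi-Poisson model of windows of 1 Mb (n = 606 windows, dispersion 1.97), the density of chromosome 5 was 1.39 times that of chromosome 1 (95% limits 1.105 to 1.742, adjusted p = 0.0191 over 4 comparisons). The ratios for chromosomes 2, 3 and 4 missed the threshold. They were 0.868 (0.713 to 1.06, n = 606 windows, adjusted p = 0.317), 0.922 (0.746 to 1.14, adjusted p = 0.604) and 1.01 (0.811 to 1.26, adjusted p = 0.926). The limits of each of these 3 ratios held 1, so none was told apart from equal density at this number of peaks. Each set of limits applies to its own ratio alone. The ratio of chromosome 4 was 0.54, below 1, once scores under 12 were left out, and 0.763 when the stretch, which holds 14 of the 48 such peaks on chromosome 1, was left out as well. Both missed the threshold.

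Without the stretch, chromosome 1 had 2.45 peaks per Mb, and the ratio of chromosome 5 was 1.43 (1.14 to 1.79, n = 606 windows, adjusted p = 0.0075). In windows of 5 Mb the ratio of chromosome 5 stayed at 1.39 but missed the threshold (quasi-Poisson model, n = 123 windows, adjusted p = 0.104). Neighbouring windows are not independent, so the p-values from 1 Mb windows can be too small.

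**Figure D2:**
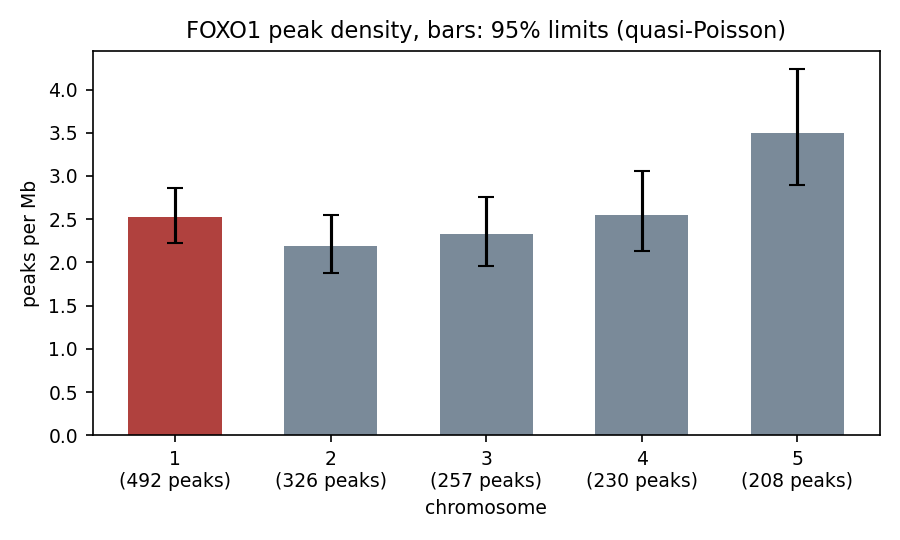
Peaks per Mb of covered length (vertical) on chromosomes 1 to 5 (horizontal, with peak numbers); bars are quasi-Poisson 95% limits from windows of 1 Mb. Chromosome 5 stands at 3.50 per Mb, above the 2.19 to 2.55 of the other 4.

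Typical tags and folds on chromosome 1 were close by value to those of the other long autosomes. Its median fold of 13.21 equalled that of the pooled peaks of chromosomes 2 to 5, whose order-statistic interval was 12.58 to 13.84. The single medians were 12.58 on chromosome 2, 12.98 on chromosome 3, 14.16 on chromosome 4 and 13.21 on chromosome 5, with intervals that all overlapped that of chromosome 1. The median input was 11 tags on chromosome 1 and 11 on chromosomes 2 to 5. Against the surrounding 10 kb of the ChIP library the median fold was 15.4 on chromosome 1 and 14.7 on chromosomes 2 to 5. The share of peaks with the lowest listed score of 7 was 44.3% (39.9 to 48.8) on chromosome 1 and 44.1% (41.0 to 47.2) on chromosomes 2 to 5. None of these differences was tested, because peaks of the same 2 libraries are not replicates.

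The upper end of the tag scale differed more by value. On chromosome 1, 17 peaks held 20 tags or more, against 2 of the 1021 on chromosomes 2 to 5, both of them on chromosome 5. Of the 17, 13 lay in the stretch. The other 4 made up 0.837% of the 478 peaks outside it (exact 95% interval 0.229 to 2.13), against 0.196% (0.0237 to 0.706) on chromosomes 2 to 5, and these intervals overlapped. Input was high in the same places: 14 chromosome 1 peaks had 100 or more input tags, 12 of them in the stretch, and chromosomes 2 to 5 had 0.

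The stretch ran from 100348374 to 100411694. No other peak was listed in its window of 1 Mb, and it was isolated from listed peaks on both sides. The lowest fold over the local 10 kb among its members was 4.04, where 4 was required. Over the whole list that filter removed 338 candidates, whose places are not given, so spacing here is that of listed peaks alone. The nearest listed peak to the left ended 1.63 Mb away, at 98719669 to 98719871, with 9 ChIP tags and 11 input tags. The nearest to the right began 1.29 Mb away, at 101698203 to 101698405, with 6 ChIP tags and 9 input tags. Within the stretch, gaps between neighbours had a median of 4.50 kb and ranged from 1.86 to 8.12 kb, against a median gap of 223 kb elsewhere on the chromosome.

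Its 3 members with most tags adjoined in the middle, with 1 further large peak to their right. The peak at 100373585 to 100373787 had 659 ChIP tags over 874 in the input, 14.23-fold (exact 95% interval 12.8 to 15.8). The next, at 100378285 to 100378487, had 714 ChIP tags over 748 in the input, 18.02-fold (16.2 to 20.0). At 100381871 to 100382073 there were 610 ChIP tags and 1019 input tags, 11.3-fold (10.2 to 12.5). The one to the right, at 100384543 to 100384745, had 392 ChIP tags against 699 input tags, 10.58-fold (9.33 to 12). The largest input of the stretch thus lay under the third of the 4, whose fold was below that of both peaks to its left. These folds are on total tags. The scores, which came from at most 1 tag per position, ranked the 4 otherwise: 418, 346, 377 and 287 from left to right. By score, the peak with most tags was thus below both of its neighbours, and folds on scores were not compared between members. Elsewhere a score could also exceed the total tags, as at 5604041 to 5604243, with 7 tags and a score of 10. The score is thus not simply a count of part of the listed tags. Whether the limit of 1 tag per position held the scores of the 4 down was not tested.

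The highest folds were at other places, near the 2 edges. The left one, at 100354627 to 100354829, held 424 ChIP tags over 362 input tags, 22.11-fold (19.2 to 25.5). The rightmost peak, at 100411492 to 100411694, held 352 ChIP tags over 276 input tags, 24.07-fold (20.5 to 28.3). Both intervals lay above those of 3 of the 4 middle peaks, and that of the rightmost peak also above that of the peak with most tags. Tag number and fold therefore did not rank the members alike.

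The left edge also held the weaker of the large peaks. At 100348374 to 100348576 there were 92 ChIP tags and 246 input tags, 7.06-fold (5.49 to 9.01). At 100352565 to 100352767 there were 361 input tags under 145 ChIP tags, 7.58-fold (6.21 to 9.22). That second peak had the same input, within 1 tag, as the 22.11-fold peak 1.86 kb to its right, yet fewer ChIP tags, and their fold intervals did not overlap.

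Between the middle block and the right edge, 3 peaks had similar folds. They were 17.2 (13 to 22.7) at 100388054 to 100388256 with 103 ChIP and 113 input tags, 14.68 (11.0 to 19.5) at 100392626 to 100392828 with 91 and 117, and 17.41 (13.8 to 22.0) at 100398887 to 100399089 with 143 and 155. Their intervals overlapped, so they were not separated at this depth. The 3 smallest members were the peaks at 100360193 to 100360395, 100365264 to 100365466 and 100405591 to 100405793. They held 33, 21 and 15 ChIP tags over 114, 57 and 54 input tags. Their folds were 5.46 (3.59 to 8.11), 6.95 (4 to 11.7) and 5.24 (2.75 to 9.43).

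In all, 12 of the 14 members (85.7%) had a lower fold limit above 4 and 9 (64.3%) had one above 8. Among all listed peaks these shares were 60.3% and 13.3%. The median fold was 12.8 in the stretch and 13.21 outside it, while median ChIP tags were 144 and 7. Intervals narrow with more tags, so the larger shares are no measure of a higher fold. Of the 91 pairs among the 14, 58 had fold intervals that did not overlap. The fold over input on total tags thus varied along the stretch by more than counting error, with tags taken as independent. At the 3 peaks with most tags, the tags were 1.58, 2.06 and 1.62 times the score, from left to right. Whether the variation holds on scores was not tested.

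**Figure D3:**
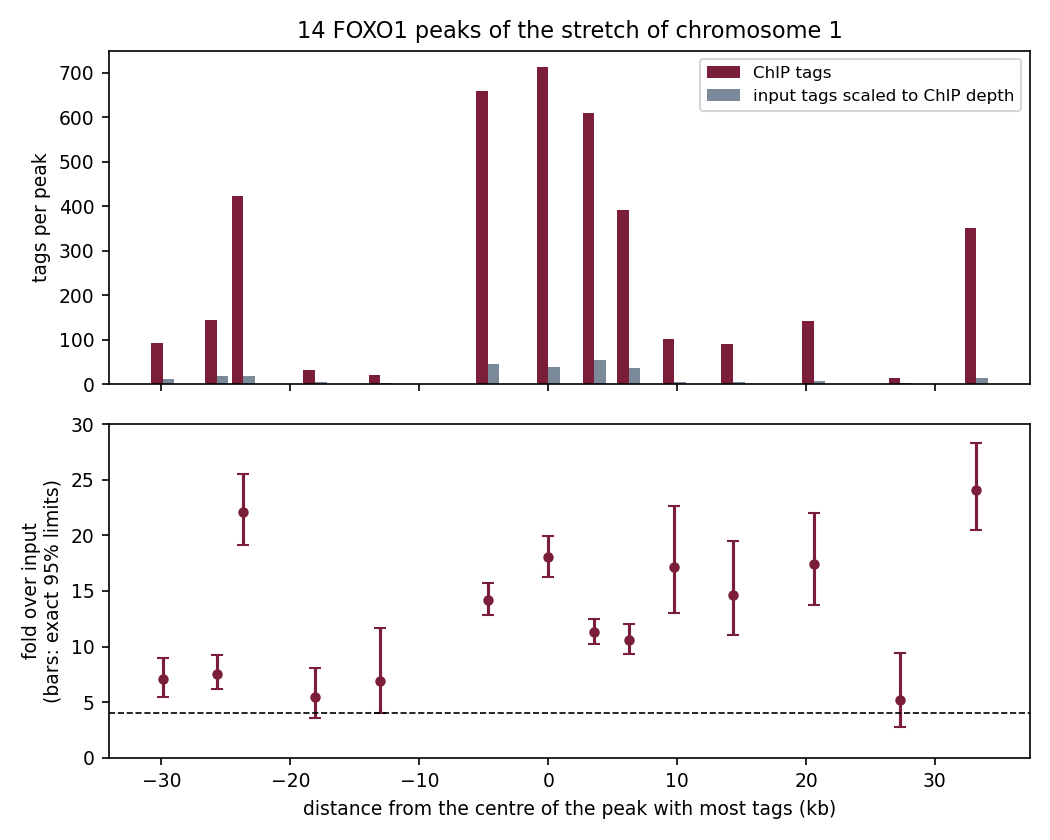
The 14 peaks of the stretch, placed by distance in kb from the centre of the peak with most tags; upper panel, ChIP tags and input tags scaled to the ChIP depth; lower panel, fold over input with exact 95% limits and a line at 4-fold. ChIP tags are highest in the middle, and the folds are highest at the 22.11-fold and 24.07-fold peaks toward the edges.

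The shape of the stretch peaks varied as well. The caller gives the share of tags placed as around a single binding site, and this share had a median of 0.778 on chromosome 1 outside the stretch. It was 0.993 at 100352565 to 100352767 and at 100398887 to 100399089, and 0.552 at 100384543 to 100384745, the lowest in the stretch. Another peak of chromosome 1 at 0.993 lay elsewhere, at 152081702 to 152081904, and no further one reached 0.95. Local surroundings differed too: the ChIP tags expected per peak width from the surrounding 10 kb, computed as tags divided by local fold, were 124 around the peak with most tags and 0.518 around the peak at 100398887, against a median of 0.497 outside the stretch. Of the 14 peaks, 7 had a larger fold over the local 10 kb than over input and 7 a smaller one. Tags exceeded the score by a factor of up to 2.06, at the peak with most tags.

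Outside the stretch, the 15 peaks with the smallest p-values included 3 with 57 or more input tags and 12 with 20 or fewer. The first of them, at 152081702 to 152081904, held 304 ChIP tags over 674 input tags, 8.51-fold (7.41 to 9.76). Its fold over the local 10 kb was 611, the highest on the chromosome, with 0.497 ChIP tags per peak width around it. At 18025904 to 18026106 there were 97 ChIP tags over 177 input tags, 10.34-fold (7.99 to 13.3), and at 135634956 to 135635158 there were 35 over 57, 11.59-fold (7.38 to 18.0). These 3 had input well above the chromosome's median of 11 tags.

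Those 12 held 7 to 21 ChIP tags over 1 to 20 input tags. The clearest was at 145707537 to 145707739, with 21 ChIP tags over 12 input tags, 33.0-fold (15.5 to 73.7). It was 1 of the 4 peaks outside the stretch with 20 tags or more, and the only one of these with input close to the median. The peak at 110383072 to 110383274 had 12 ChIP tags over 4 input tags, 56.6-fold (17.2 to 241). The peak at 84744296 to 84744498 had 12 over 5, 45.3-fold (14.9 to 164). Another 2, at 60573043 to 60573245 and 144705046 to 144705248, each had 11 over 4, 51.9-fold (15.4 to 224).

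Those at 193867409 to 193867611 and 50690886 to 50691088, both within dense windows described further on, had 16 and 15 ChIP tags over 14 and 12 input tags, 21.57-fold (9.87 to 47.7) and 23.59-fold (10.3 to 55.2). Close to the start of the chromosome, the peak at 8201 to 8403 had 15 ChIP tags over 14 input tags, 20.22-fold (9.10 to 45.2). The peaks at 53669651 to 53669853 and 47924385 to 47924587 had 16 over 20, 15.1-fold (7.32 to 30.7), and 13 over 12, 20.45-fold (8.60 to 49). The last 2, at 4295578 to 4295780 and 133351176 to 133351378, each had 7 ChIP tags over 1 input tag, a ratio of 132 (17.0 to 5955). The width of that interval shows how little a ratio to 1 input tag was fixed.

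Low input was not common. No chromosome 1 peak had 0 input tags (0 of 492, which allows a share of up to 0.61%, taken as 3 counts of the total and not as an exact limit), against 10 in the whole list. There were 4 with 1 input tag, 9 with 2 and 8 with 3, together 4.27% of the peaks (exact 95% interval 2.66 to 6.45), against 4.90% (3.66 to 6.41) on chromosomes 2 to 5. At the low end of ChIP tags, 68 peaks held 6 tags, below the threshold of 7 tags that every listed score reached.

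Along the chromosome, peaks were dense at both ends and around 50 Mb, and sparse in 2 inner regions. The first listed peak lay at 1971 to 2173 with 15 ChIP tags over 41 input tags, 6.91-fold (3.55 to 12.7), and the last at 194973096 to 194973298 with 9 over 5, 34.0-fold (10.2 to 129). In bins of 10 Mb without the stretch, the count was highest from 50 to 60 Mb and from 70 to 80 Mb, with 38 peaks each (3.8 per Mb, Poisson 95% interval 2.69 to 5.22). It was lowest from 20 to 30 Mb and from 150 to 160 Mb, with 9 peaks each (0.90 per Mb, 0.412 to 1.71). The last bin, from 190 Mb to the last peak, held 23 peaks over 4.97 Mb, or 4.63 per Mb (2.93 to 6.94). The bin from 100 to 110 Mb held 39 peaks, of which 14 were the stretch.

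Median ChIP tags were 7 to 8 in every bin of 10 Mb. Median input ran from 8 to 13 tags and median fold from 10.75 to 18.87, the latter from 170 to 180 Mb, where the median input was also lowest. The 2 sparse bins had median inputs of 10 and 9 tags and median folds of 12.91 and 15.1, all within the range of the other bins.

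**Figure D4:**
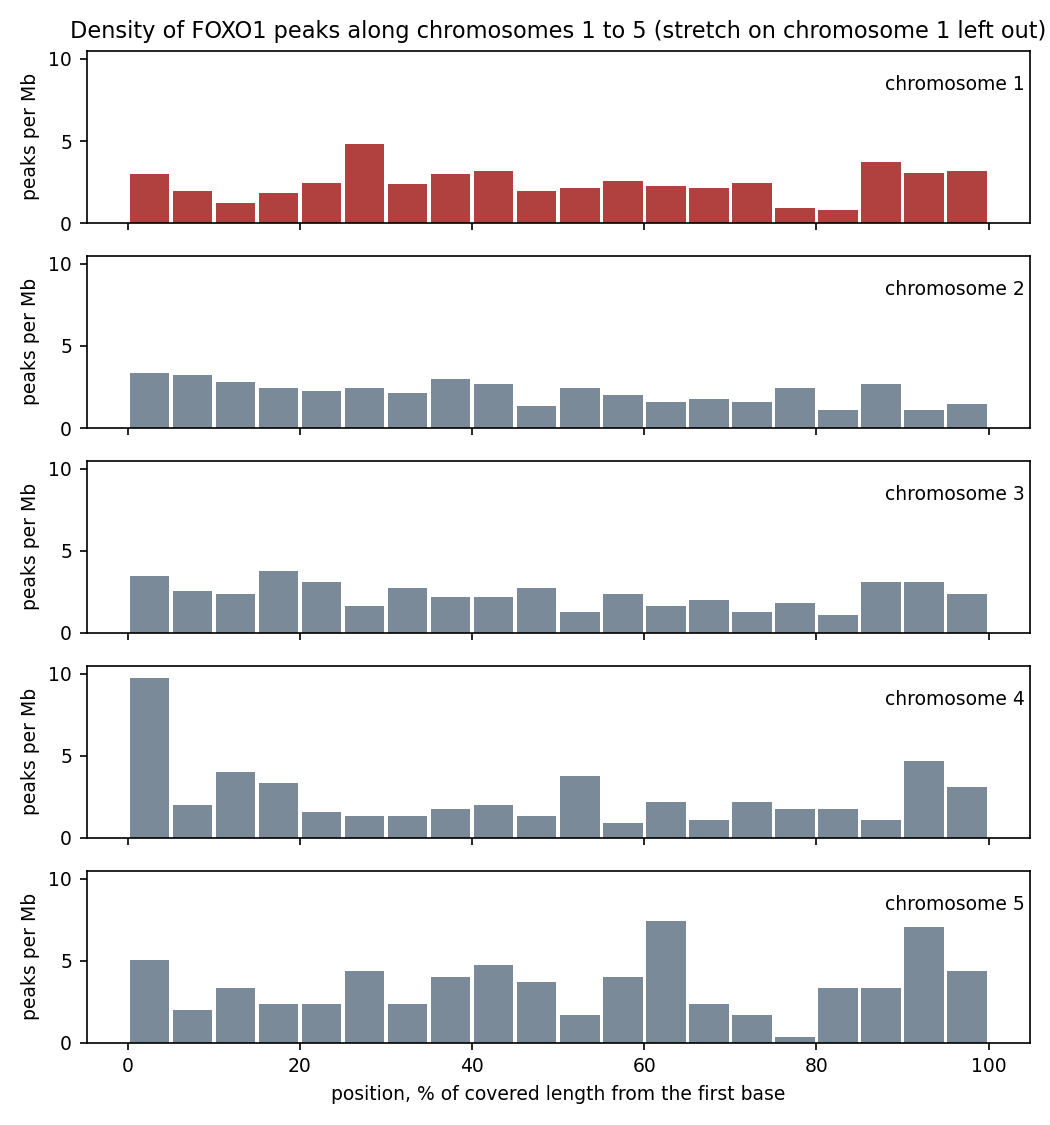
Peaks per Mb (vertical) in 20 equal parts of the covered length (horizontal, in percent from the first base) of chromosomes 1 to 5, with the stretch left out. On chromosome 1 the part from 25 to 30% is highest at 4.82 per Mb, and the parts from 75 to 85% are lowest at 0.923 and 0.821.

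Both ends of chromosome 1 carried more peaks per Mb than its interior did on average. The interior was itself uneven. In windows of 1 Mb, 49 to 50 Mb and 50 to 51 Mb held 10 and 12 peaks, the first Mb 11 and the last full Mb 10. The interior thus had windows about as full as the fullest at the ends. Poisson intervals do not allow for the variance of peaks per window, which was 2.30 times the mean. The first 5 Mb and the last 5 Mb held 23 peaks each, or 4.6 per Mb (Poisson 95% interval 2.92 to 6.90), against 2.34 (2.12 to 2.57) in between. By value this excess lay mostly in the outermost windows. From the start, the first 5 windows of 1 Mb held 11, 5, 2, 4 and 1 peaks, and those from 190 to 195 Mb held 0, 1, 4, 10 and 8. The 2 ends differed in their input by value, since the median was 14 tags in the first 5 Mb and 9 in the last, with median folds of 12.13 and 14.68. On chromosome 2 the excess was at the start alone by value, with 4.2 per Mb in the first 5 Mb, 1.2 in the last and 2.15 in between. Chromosome 4 had 9 in the first 5 Mb, 3 in the last and 2.12 in between, and chromosome 5 had 3.6, 5 (Poisson 95% interval 3.24 to 7.38) and 3.34. Chromosome 3 had 3.6 and 2 at its ends, with Poisson intervals (2.13 to 5.69 and 0.959 to 3.68) that held the 2.28 of its interior. Whether the pattern of the ends differs between chromosomes was not tested.

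The dense windows were few against the 195 windows of 1 Mb. The median window held 2 peaks, 34 windows held none, and 8 held 8 or more (4.10% of windows, or 7 without the stretch). On chromosomes 2, 3, 4 and 5 the windows with 8 or more peaks numbered 1, 1, 3 and 4, which is 0.671%, 0.901%, 3.30% and 6.67%. After the stretch, the fullest windows on chromosome 1 were 50 to 51 Mb with 12 peaks, the first Mb with 11, and 49 to 50 Mb and the last full Mb with 10 each. The windows that hold the peaks at 144705046 and at 184876807 had 8 each, as did the part from the last full Mb to the last peak. The variance of peaks per window was 2.30 times the mean, and 2.1 times without the stretch, against 1.61 on chromosome 2, 1.40 on chromosome 3, 2.59 on chromosome 4 and 1.91 on chromosome 5.

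Fuller windows also tended to adjoin. Across adjoining windows, which share libraries and chromosome, Pearson's r of their counts was 0.31 without the stretch and 0.22 with it. As a description, the same value was 0.015 on chromosome 2, -0.083 on chromosome 3, 0.58 on chromosome 4 and 0.22 on chromosome 5.

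In the first Mb, 11 peaks held 6 to 15 ChIP tags (median 8) over 2 to 41 input tags (median 11). Their folds had a median of 17.16, from 6.86 at 151761 to 151963 up to 56.6 at 539770 to 539972. A lower limit above 4 was reached by 9 of the 11 (81.8%, exact 95% interval 48.2 to 97.7), against 60.3% of all listed peaks. The first Mb of chromosomes 2, 3, 4 and 5 held 13, 1, 16 and 7 peaks. The chromosome 1 count (Poisson 95% interval 5.49 to 19.7) was within counting error of chromosomes 2, 4 and 5.

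From 49 to 51 Mb, 22 peaks held 6 to 15 ChIP tags (median 7.5) over 1 to 21 input tags (median 12). The 10 from 49 to 50 Mb stood at a median of 12.89-fold over a median of 11.5 input tags, and the 12 from 50 to 51 Mb at 10.71-fold over 16.5 input tags. Folds ran from 7.34 at 50448419 to 50448621 up to 113 at 50671026 to 50671228, where 6 ChIP tags stood over 1 input tag. Of the 22, 13 had a lower limit above 4 (59.1%), close to the 60.3% of all listed peaks. The gaps had a median of 47.3 kb, well above the gaps of the stretch, although this region held 2 of the 6 pairs closer than 1 kb.

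In the last full Mb, 10 peaks held 6 to 16 ChIP tags (median 7.5) over 4 to 17 input tags (median 9.5). Their folds had a median of 15.2, from 9.44 at 193849701 to 193849903 up to 33.0 at 193906603 to 193906805. A lower limit above 4 was reached by 8 of the 10 (80%, exact 95% interval 44.4 to 97.5), against 60.3% of all listed peaks. Only 1 of the 10, the peak at 193867409 named above, had a score of 12 or more. The first Mb held 2 such peaks and the 2 Mb from 49 to 51 Mb held 3.

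Taken with the 435 peaks outside these windows and the stretch, the 43 peaks of the 3 dense regions had a similar median fold. Pooled, they more often had a high lower limit by value, but this did not hold for dense windows in general. Their median fold was 13.73 (order-statistic 95% interval 11.1 to 18.9), against 13.07 (12.58 to 14.16) for the 435, and both had a median input of 11 tags. A lower limit above 4 was reached by 69.8% (exact 95% interval 53.9 to 82.8) and 59.5% (54.8 to 64.2). A lower limit above 8 was reached by 25.6% (13.5 to 41.2) and 11.0% (8.25 to 14.4), with intervals that overlapped slightly. A score of 12 or more was held by 13.95% (5.30 to 27.9) and 6.44% (4.32 to 9.17), and 6 to 9 ChIP tags by 76.7% (61.4 to 88.2) and 87.4% (83.9 to 90.3). The ChIP tags of the surrounding 10 kb were denser by value in the dense regions, at 0.642 per peak width in the median peak against 0.477; its part in the number of peaks was not tested.

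Peaks were far apart as a rule, with a median gap of 218 kb on chromosome 1 (interquartile range 64.2 to 504 kb), or 223 kb without the stretch. The 55 gaps over 1 Mb took up 44.1% of the covered length, against 48.6%, 40.3%, 38.1% and 24.9% on chromosomes 2, 3, 4 and 5. The longest gap was 4.44 Mb, between the peak at 155461504 to 155461706 (8 ChIP tags, 6 input tags) and that at 159902165 to 159902367 (7 and 4). The next was 3.64 Mb, from 146493790 to 146493992 (6 and 5) to 150133537 to 150133739 (7 and 12). The following 3 were 2.26 Mb after 189630379, 2.20 Mb after 162823853 and 2.15 Mb after 95264479. Of these 5 gaps, 3 lay between 146493992 and 165019521. The peak with 304 tags at 152081702 lay in the same region, between the 2 longest gaps.

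At the other extreme, 34 of 491 neighbouring pairs were within 10 kb, or 6.92%, and 13 of them were the pairs of the stretch. The remaining 21 were 4.40% of 477 pairs (exact 95% interval 2.75 to 6.65). Chromosomes 2, 3, 4 and 5 had 12, 5, 16 and 12 such pairs, or 3.69%, 1.95%, 6.99% and 5.80%. Apart from the 14 peaks of the stretch, no set on chromosome 1 with neighbours 10 kb apart or less went beyond 3 members. There were 2 sets of 3, at 51578549 to 51587583 and at 82796054 to 82810619.

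In each of the 21 close pairs, the exact fold intervals of both members overlapped, with 6 to 15 ChIP tags on each side. The 6 pairs within 1 kb lay at 3411392 to 3412320, 18656297 to 18657644, 50105183 to 50106080, 50733299 to 50734155, 72117558 to 72118600 and 77949552 to 77950623. The last pair had the most input of the 6: its left member held 14 ChIP tags over 36 input tags, 7.34-fold (3.66 to 14), and its right member 14 over 66, 4-fold (2.08 to 7.20), the lowest fold on the chromosome. The first pair of the chromosome, 1971 to 2173 and 8201 to 8403, had 15 ChIP tags in each member but 41 and 14 input tags. Near it, the pair at 1855121 to 1855323 and 1857568 to 1857770 had 11 ChIP tags in each member over 39 and 46 input tags, 5.32-fold and 4.51-fold.

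The numbers in the peak names carry information on candidates that were not listed. On every chromosome the numbers followed the score downward and, within a score, the position upward, with numbers left out. The highest numbers add up to 4447 over all chromosomes, close to the 4479 putative peaks given in the file header before the filters on input, local tags and clonality. If the numbers were given before those filters, chromosome 1 had at least 664 candidates, of which 172 were not listed. The listed share was 74.1% on chromosome 1 (exact 95% interval 70.6 to 77.4), 79.6% (77.3 to 81.7) on chromosomes 2 to 5 and 74.6% over all chromosomes. The header does not say when the numbers were assigned, and a candidate after the last listed number would not be seen.

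The unlisted numbers on chromosome 1 were most frequent among the highest scores. Of the first 7 numbers all were listed, 6 of them in the stretch. Of the first 50, with listed scores from 418 down to 15, 26 were listed, or 52.0% (exact 95% interval 37.4 to 66.3). From 110 to 216, with scores of 10 and 9, 84.1% (75.8 to 90.5) were listed, and from 357 to 664, with a score of 7, 70.8% (65.3 to 75.8). In the top 10% of the numbers, 36 of 66 were listed on chromosome 1, or 54.5% (41.8 to 66.9), against 79.7% (71.7 to 86.3) on chromosomes 2 to 5, and these intervals did not overlap. In the next 10% the shares were 74.6% (62.5 to 84.5) and 91.5% (85.2 to 95.7), again with no overlap, and in the other 8 parts the intervals overlapped. These parts are not matched on score: in the first of them, number 66 on chromosome 1 had a score of 12 and number 40 on chromosome 2 a score of 10. The difference was not tested otherwise, and the filter that removed each candidate is not recorded.

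**Figure D5:**
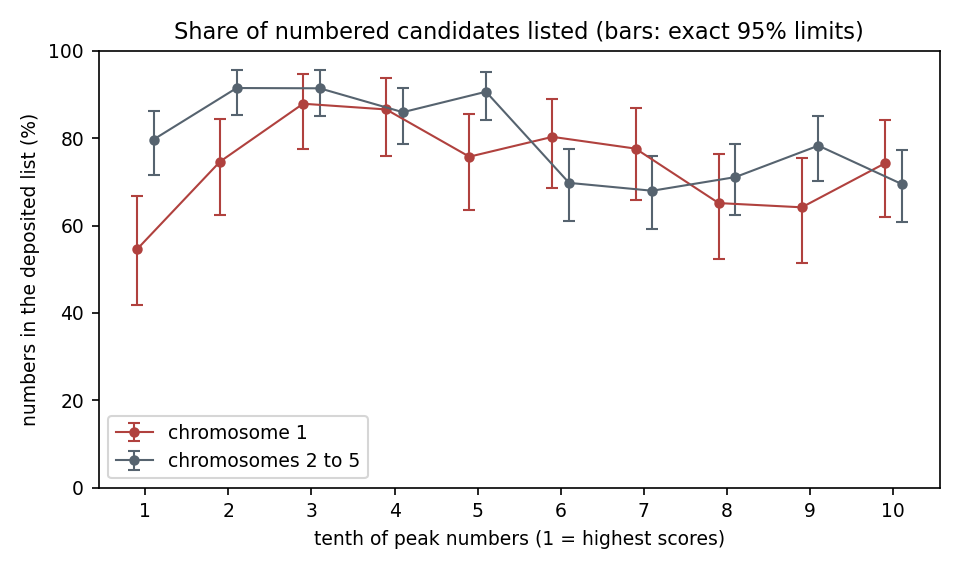
Share of peak numbers present in the deposited list (vertical, percent) in 10 equal parts of the numbers on each chromosome (horizontal, 1 for the highest scores), for chromosome 1 and for chromosomes 2 to 5; bars are exact 95% limits. In the first of the 10 parts chromosome 1 stands at 54.5% and chromosomes 2 to 5 at 79.7%.

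Some unlisted candidates could be placed roughly, since numbers of 1 score rise with position. Of the 172, 144 fell between 2 listed peaks of the same score, in brackets with a median length of 1.75 Mb (interquartile range 0.783 to 3.53 Mb). The longest runs of unlisted numbers within 1 score had 4 numbers. One was at a score of 7, between 76340233 and 78074100, and the other at a score of 8, between 76996359 and 78143782, so the 2 brackets overlapped. The others, including 24 of the first 50 numbers, lie where scores change and could not all be placed.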

How the data were processed

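FOXO1 ChIP and input DNA (1 library each, grouped by sample titles) were sequenced on an Illumina HiSeq2000 after sonication to 300 to 500 bp, per the labels. The submitters' processing notes name Bowtie2 2.1.0 with HOMER 4.7. The authors called 203 bp peaks, per the file headers, with findPeaks at a false discovery rate of 0.001 from 2207278 ChIP tags, and required a 4-fold excess and a p-value of 0.0001 over input and over the local 10 kb. Total tags are deposited counts. Normalized and input tags are a scaled signal, the share of tags placed as at a single site a fraction, and the score the peak finder's own number, all deposited by the authors. The folds are ratios and the p-values unadjusted Poisson values, as deposited by the authors.

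Here, input tags were recovered from tags divided by fold, in steps of 0.053. All of the 3300 peaks whose printed fold resolves a step came within 0.1 of a whole tag (or of the midpoint that stands for 0), and the other 17 were rounded. The highest peak end stood for a chromosome's length. Densities were compared in a quasi-Poisson model of 1 Mb windows (peaks placed by centre, Wald test, Benjamini-Hochberg over 4 comparisons, threshold 0.05). The model was tested on simulated data with independent windows, which leave out the dependence of neighbouring windows. Intervals are 95%. Alternatives were stricter lists, other windows and lengths, an exact test, and leaving out the stretch. Peaks named are all 14 of the stretch, the 15 others with the smallest p-value, window extremes, the first and last peak, and the peaks at the 5 longest gaps. Close pairs and a few further peaks were singled out after their values were seen. The regions, windows and lists were chosen with earlier results of these data known, and the use of peak numbers was added after the list was seen. The genome build is not given in the sources used here, so a table of chicken genes of a named assembly was not used. The software was Python 3.11.15 with statsmodels 0.14.6, scipy 1.17.1, numpy 2.4.6, pandas 2.3.3 and, for figures, matplotlib 3.10.9.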

Additional observations from a re-analysis of the deposited data

How the results depend on the processing

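For the 10 results, 57 other settings were run. Of these, 42 neither turned a direction, crossed the threshold nor moved a value beyond the limit set for it. For counts of close pairs and of peaks in windows, that limit was a fixed ratio to the main count and not counting error. The 1.39 times density of chromosome 5 missed the threshold in 4 of 10 settings. At a score of at least 12 the ratio was 1.16 (quasi-Poisson model, n = 606 windows, adjusted p = 0.727, 48 peaks on chromosome 1), and among 1659 peaks chosen by smallest p it was 1.36 (adjusted p = 0.166). In windows of 5 Mb it was 1.39 (n = 123 windows, adjusted p = 0.104). Of the 48 peaks, 14 are the stretch: with both it and lower scores left out, a setting chosen after seeing the data, the ratio was 1.64 (n = 606 windows, adjusted p = 0.495). The score and p settings leave fewer peaks. The 5 Mb setting keeps every peak, and its limits were 1.04 to 1.85, against 1.105 to 1.742 in windows of 1 Mb. Why these settings missed the threshold was not tested. The ratios of chromosomes 2, 3 and 4 missed it in each of the 10 settings, and that of chromosome 4 turned from 1.01 to 0.54 at a score of at least 12, 0.763 with the stretch also left out and 0.987 among the 1659 peaks. The share of peaks with a lower fold limit above 4 was 67.7% on scores in place of total tags, and the median fold was 15.4 against the local 10 kb in place of input; the cause was not tested. Pairs within 10 kb numbered 21 without the stretch, 20 at a fold of at least 8 and 14 with both, the last setting chosen after seeing the data. At a score of at least 12 the first Mb, 49 to 51 Mb and the last full Mb held 2, 3 and 1 peaks, smaller by construction. No paired analysis was possible because neither the ChIP nor the input has a second library. Depth limits single peaks: at a median of 7 ChIP tags, both members of each of the 21 close pairs outside the stretch had overlapping fold limits.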
